A study of Sus scrofa with 12 samples.

Results

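The peaks described here are the m6A peaks that the deposited peak table assigns to genes of the type lncRNA, whatever their width or position. They are 768 of the 25055 merged peaks, or 3.07%, and the other 24287 are peaks of mRNA genes. The peaks come from IPEC-J2, an epithelial cell line from pig small intestine with the genotype given as WT. Cells were kept for 24 h with 25 µM (called OAA cells here) or 0 µM (CON cells) of OAA, a compound not spelled out in the labels; the title of the series speaks of 2-oxindole-3-acetic acid. Each treatment had 3 numbered replicates, and each replicate had a library labelled input and a library labelled IP, which gave 12 libraries in 4 groups of 3. Whether the replicates were separate cultures is not stated in the labels, so the p-values cover the spread among these samples, and that spread may be technical.

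N6-methyladenosine (m6A) is a base modification that METTL3 and METTL14 write on RNA, that FTO and ALKBH5 can remove and that YTH-domain proteins bind. In MeRIP-seq, fragmented RNA is pulled down with an antibody to m6A and sequenced next to fragments that were not pulled down, and a peak is a stretch where the bound fragments pile up. Long noncoding RNAs are transcripts without a long open reading frame, often low in abundance and often transcribed next to a protein-coding gene. Well-studied ones such as MALAT1 and XIST carry m6A in human cells.

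The labels and the rest of the deposit disagree about which libraries hold the antibody-bound RNA. The deposited gene expression table was made from the libraries labelled IP, and the authors' deposited log2 ratios run as labelled input over labelled IP and are nearly all above 0. The peak ratio used here is likewise log2 of labelled input over labelled IP, set so that the typical peak of the whole table lies at 0. A high ratio marks a peak rich in antibody-bound RNA if the labels are swapped, and a peak poor in it if they are right. The 2 readings cannot be told apart from the sources used here, so results are given as labelled. The peaks themselves were called by the authors from such libraries, so every member had already passed a caller.

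The libraries labelled input held 16491095 to 23010413 reads in peaks and the libraries labelled IP 3709352 to 4607452. The median lncRNA peak had 53 to 75 reads in a labelled-input library and 8 to 11 in a labelled-IP library, against 138 to 192 and 48 to 60 reads for the median mRNA peak. Epithelial genes marked the libraries of the deposited FPKM table, with EPCAM, a surface adhesion protein, at 184 to 205 FPKM and KRT8, a keratin, at 350 to 424 FPKM, while VIL1, the brush-border villin, stayed at 0.103 to 0.467 FPKM. Of the other cell types checked, 0 of 5 fibroblast genes averaged 1 FPKM, and PTPRC of leukocytes was listed at 0, but CD79A of B cells had 3.76 to 7.34 FPKM and 3 of 3 measured endothelial genes averaged at least 1 FPKM. Their part in the results was not tested. The libraries of OAA labelled IP replicate 3 and OAA labelled input replicate 1 decide 1 result below and are named there.

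The 768 peaks lay under 407 gene identifiers when each peak is counted under the first gene listed for it. A single gene was listed for 623 peaks, and 145 lay under several lncRNA genes, 130 of them under genes of both strands. The peaks carry no strand, so reads of a gene and of its antisense partner cannot be told apart there. No peak was listed under both an lncRNA and an mRNA gene. The median lncRNA peak spanned 225 bp, against 300 bp for mRNA peaks, and 66.5% of lncRNA peaks were at most 300 bp wide, against 50.9% of mRNA peaks. The genes were shorter too, with a median listed span of 7290 bp, against 29841 bp for mRNA genes with a peak. Of the lncRNA genes, 222 (54.5%) had a single peak, against 35.6% of mRNA genes, and 19 had 5 peaks or more. Chromosome 3 held the most, 87 peaks in 38 genes.

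Most of these genes are known here by identifier alone. The deposited table gives a symbol or a position within the gene for none of the 768 peaks. The reference table supplied a symbol for 25 identifiers, which hold 57 peaks. For 23 of these, with 52 peaks, the symbol is one that RefSeq's pig annotation (Sscrofa11.1) lists as protein-coding, among them HDLBP, TMEM80, IER2, TIMM13 and PHF20. The other symbols, C22orf39 and TINCR, had no match among the protein-coding symbols there, which does not show that either is noncoding. TINCR is known from differentiation of human epidermis. None of the named lncRNAs looked up held a peak: 0 of 9 nuclear and chromosome-associated RNAs such as MALAT1, NEAT1 and XIST, 0 of 38 snoRNA host genes, 0 of 5 imprinted lncRNAs such as H19, 0 of 8 miRNA host genes and 0 of 16 others. A gene without a symbol in the reference table could not be found in this way, so these counts do not show that the RNAs lack m6A. No lncRNA identifier was found in the FPKM table, so the total level of these RNAs was not analysed here.

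Neighbours were sought only among mRNA genes of the peak table, so coding genes without a peak were not considered. How often other genes lie as close to one was not computed. None of the 479 lncRNA genes listed for any peak overlapped an mRNA gene of the peak table, but 101 of the 407 lay within 1000 bp of one, and 76 of those 101 were head to head with it. Over all 407 genes, 151 were head to head with the nearest mRNA gene of the peak table and 108 lay upstream on its strand. Another 76 were tail to tail and 72 lay downstream on its strand, and the median distance to that gene was 11802 bp. The peak ratios by layout were as follows. For genes head to head within 1000 bp, the median ratio was 1.10 in OAA and 0.87 in CON cells. For genes farther than 1000 bp from any mRNA gene of the peak table it was 0.84 in OAA and 0.82 in CON cells. The 7 genes that lay downstream on the same strand within 1000 bp went the other way, with a median of -0.67 in OAA and -0.66 in CON cells over 11 tested peaks. Of these 11 peaks, 4 were called higher and 6 lower in CON cells, beside 33.9% and 34.2% of all peaks tested. Upstream on the same strand the median was 0.55 in OAA and 0.92 in CON cells over 15 peaks, and tail to tail it was 0.53 in OAA and 0.40 in CON cells over 13. These small groups were not tested against each other.

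Within the listed gene span, lncRNA peaks were spread more evenly than mRNA peaks. Of the lncRNA peaks up to 10000 bp wide, 32.8% had their centre in the last 20% of the gene, against 46.7% of mRNA peaks, and 24.0% had it in the first 20%, against 23.7%. The median ratio of the lncRNA peaks in CON cells was 0.84 in the last 20% and 0.87 in the first 20%.

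Reads in lncRNA peaks made up a small and steady share. In the labelled-input libraries the share of all reads in peaks was 1.60%, 1.62% and 1.58% in OAA cells and 1.58% in each of the 3 CON libraries. In the labelled-IP libraries it was 1.17%, 1.18% and 1.19% in OAA cells and 1.17%, 1.18% and 1.15% in CON cells. In labelled input the OAA libraries all lay above the CON libraries, the lowest of them by less than the rounding shows, and in labelled IP the treatments overlapped. With 3 libraries against 3, an exact two-sided permutation test cannot give a p below 0.10. Every labelled-input library lay above every labelled-IP library. A few peaks carried much of this: the 10 strongest held 36.6% to 37.9% of the lncRNA reads in labelled-input libraries and 26.8% to 28.4% in labelled-IP libraries. A peak of ENSSSCG00000044397 alone held 8.57% of lncRNA reads in the labelled-input libraries, a peak of ENSSSCG00000043791 held 6.81% and a peak of TMEM80 held 6.68%.

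The first question was how the 2 kinds of library differed at each lncRNA peak, within each treatment. The peaks leaned towards the labelled-input libraries. Of the 683 lncRNA peaks with enough reads to test, 412 (60.3%) were called in OAA cells and 409 (59.9%) in CON cells, beside 68.5% and 68.1% of all 24145 peaks tested. By direction, 321 (47.0%) were higher in labelled input and 91 (13.3%) were lower in OAA cells, while over all peaks 34.1% were higher and 34.4% lower. In CON cells 319 (46.7%) were higher and 90 (13.2%) lower, beside 33.9% and 34.2% of all peaks. A peak is called higher or lower where the Benjamini-Hochberg adjusted p of edgeR's quasi-likelihood test was under 0.05 over all peaks tested. With the 2 libraries of a replicate compared within it, 404 were called in OAA and 396 in CON cells, beside 68.2% and 67.6% of all peaks. The median lncRNA ratio was 0.85 in OAA and 0.79 in CON cells, against 0.01 in OAA and -0.00 in CON cells for mRNA peaks. The 10% to 90% range was -0.95 to 2.73 in OAA and -0.88 to 2.82 in CON cells for lncRNA peaks, so that many lncRNA peaks lay among the ordinary mRNA peaks.

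**Figure D1:**
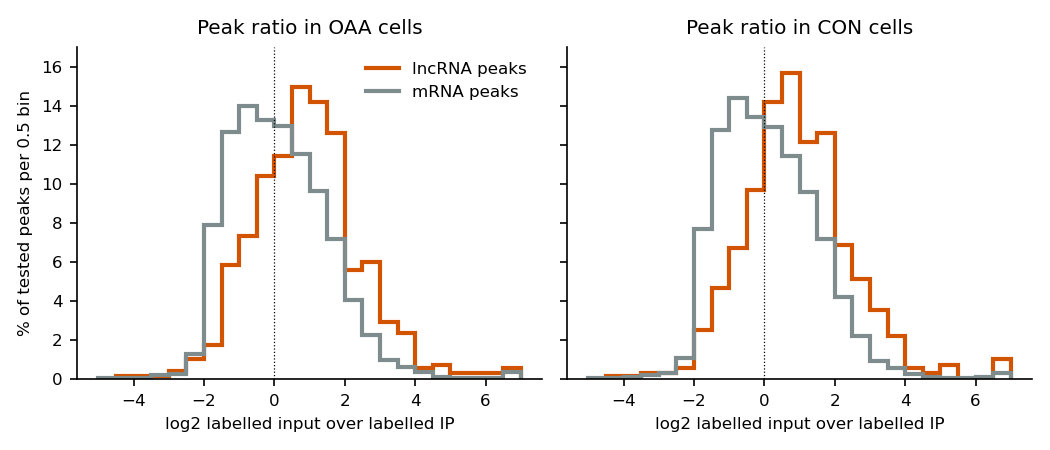
Distribution of the log2 peak ratio (labelled input over labelled IP, x axis) as the percent of tested peaks per 0.5 bin (y axis) for OAA cells (left) and CON cells (right), with lncRNA peaks in orange and mRNA peaks in grey; values beyond the axis are in the end bins. In both treatments the lncRNA curve lies to the right of the mRNA curve, with medians of 0.85 in OAA and 0.79 in CON cells.

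Low counts limit how this difference can be read, and their part in it was not tested. The filter needs enough reads in 3 libraries, and 152 of the 683 peaks passed it through the labelled-input libraries alone, which are the deeper ones. These peaks had to have a high ratio or few reads, and they say little about direction. Among the 531 that also passed in labelled IP, 226 were higher and 90 lower in CON cells, and the median was 0.52, against -0.13 for the 21728 mRNA peaks that passed in the same way. Called higher were 42.6% of these lncRNA peaks and 31.6% of these mRNA peaks. Computed in each numbered replicate on log2(CPM + 0.1), the median over these 531 peaks was 0.48, 0.59 and 0.54 in the OAA replicates and 0.51, 0.49 and 0.62 in the CON replicates, while the mRNA medians lay between -0.15 and -0.08. Over all 683 tested lncRNA peaks the replicate medians were 0.83, 0.82 and 0.76 in OAA and 0.74, 0.81 and 0.87 in CON cells. Scaled by library size alone, without the step that sets the typical peak to 0, 265 lncRNA peaks were higher and 116 lower in OAA cells, beside 27.9% and 41.0% of all peaks, with a median of 0.58 (all peaks -0.24). In CON cells 252 were higher and 122 lower, beside 27.0% and 41.7% of all peaks, with a median of 0.50 (all peaks -0.28).

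The lean varied with width and with level. Peaks up to 100 bp wide had a median ratio of 0.02 in CON cells for lncRNA and -0.87 for mRNA, and peaks over 300 and up to 600 bp had 1.29 for lncRNA and 0.62 for mRNA. By level, as the mean of log2(CPM + 0.1), the medians in CON cells were 0.44 for lncRNA and -0.60 for mRNA from 3 to 4, and 0.52 for lncRNA and 0.34 for mRNA above 5. Below 1 they were 1.496 for lncRNA and 1.09 for mRNA, but there 85 of 318 lncRNA peaks were not tested and the filter favours peaks that are high in labelled input, so that value says little about direction. Peaks under a single gene had a median of 0.91 in CON cells, and peaks under genes of both strands 0.52.

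The identifiers that carry a protein-coding symbol differed from the rest of the lncRNA peaks. Their 51 tested peaks had a median ratio of 0.14 in OAA and 0.01 in CON cells, with 19 higher and 16 lower in CON cells, close to the mRNA peaks. The 632 other tested lncRNA peaks had a median of 0.89 in OAA and 0.87 in CON cells. Of them, 300 were higher and 74 lower in CON cells, beside 33.9% and 34.2% of all peaks tested. The 152 peaks that passed the filter through labelled input alone, which favours high ratios, were not left out here. How they divide between the groups was not computed. The medians and counts are descriptions of the groups and were not tested against each other.

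Among called peaks of a single gene with a mean of 5 CPM or more in the higher kind of library and no overlap between the kinds of library in CON cells, the rule by which peaks are named here, the highest ratio in CON cells belonged to ENSSSCG00000049534, at chr7:16893351-16902528 on a gene between E2F3 and DCDC2 that has no symbol. In OAA cells the peak had 74.7, 80.0 and 65.5 CPM in the labelled-input libraries, against 1.58, 1.02 and 2.08 CPM in the labelled-IP libraries. In CON cells it had 62.0, 76.0 and 81.2 CPM in labelled input, against 2.24, 1.60 and 1.45 CPM in labelled IP. All labelled-input libraries stood far above all labelled-IP libraries, and the treatments overlapped within each kind. Its log2 ratio was 5.55 ± 0.21 in OAA and 5.36 ± 0.21 in CON cells (SE, n = 3 libraries per group; edgeR adjusted p in CON = 4.12e-20). The peak spans 9178 bp, much more than the RNA fragments. Higher fitted ratios, up to 7.11 in OAA and 7.35 in CON cells over all tested lncRNA peaks, came from weaker peaks with few or no labelled-IP reads and are not given as sizes.

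The peak of TMEM80, which encodes a transmembrane protein, was both strong and one-sided. It lies at chr2:432971-433533, in a gene between DEAF1 and RPLP2. It had 1199, 1246 and 989 CPM in the OAA labelled-input libraries, against 51.7, 54.7 and 40.9 CPM in OAA labelled IP. It had 1243, 1194 and 1165 CPM in the CON labelled-input libraries, against 51.7, 48.2 and 52.0 CPM in CON labelled IP. The kinds of library did not overlap, and OAA replicate 3 was the lowest in both kinds. The log2 ratio was 4.54 ± 0.10 in OAA and 4.57 ± 0.10 in CON cells (edgeR adjusted p in CON = 2.28e-26). The gene's peak at chr2:430071-431045 had ratios of 1.90 in OAA and 1.87 in CON cells, and its peak at chr2:432121-432220 had 0.05 and -0.39, neither of which passed the test.

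The other 6 peaks at the top of the naming rule lay in genes without a symbol, with fewer reads. Ratios of ENSSSCG00000048587, ENSSSCG00000051266, ENSSSCG00000043233 and ENSSSCG00000049494 were 4.56, 4.81, 3.86 and 3.42 in OAA and 4.43, 4.29, 3.73 and 3.61 in CON cells, all called. ENSSSCG00000048587 had only 3, 4 and 4 labelled-IP reads in OAA and 1, 4 and 7 in CON cells. ENSSSCG00000049494 had 7 labelled-IP reads in all in each treatment. Its 95% exact counting interval was 2.39 to 4.78 in OAA and 2.58 to 4.97 in CON cells. Like ENSSSCG00000041898 below, these 2 peaks passed the filter through labelled input alone, which favours high ratios. ENSSSCG00000043207, next to the RIOK1 and DSP genes, had 2.58 ± 0.29 in OAA and 4.18 ± 0.36 in CON cells. Its labelled-IP level was 2.38, 4.27 and 0.834 CPM in OAA cells and 0.672, 0.800 and 1.21 CPM in CON cells, which overlap, and the change of its ratio did not pass (-1.60 ± 0.54, edgeR adjusted p = 0.999). For ENSSSCG00000041898 the labelled-IP libraries held 2 reads in all in OAA cells and 3 in CON cells, against 462 and 417 reads in labelled input. The log2 ratio of the summed reads was 5.95 in OAA cells, with a 95% exact counting interval of 4.09 to 9.00, and 5.09 in CON cells, with an interval of 3.53 to 7.38. Reads of these libraries carry no molecular identifiers that the sources used here mention, so such intervals cover counting error only.

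**Figure D2:**
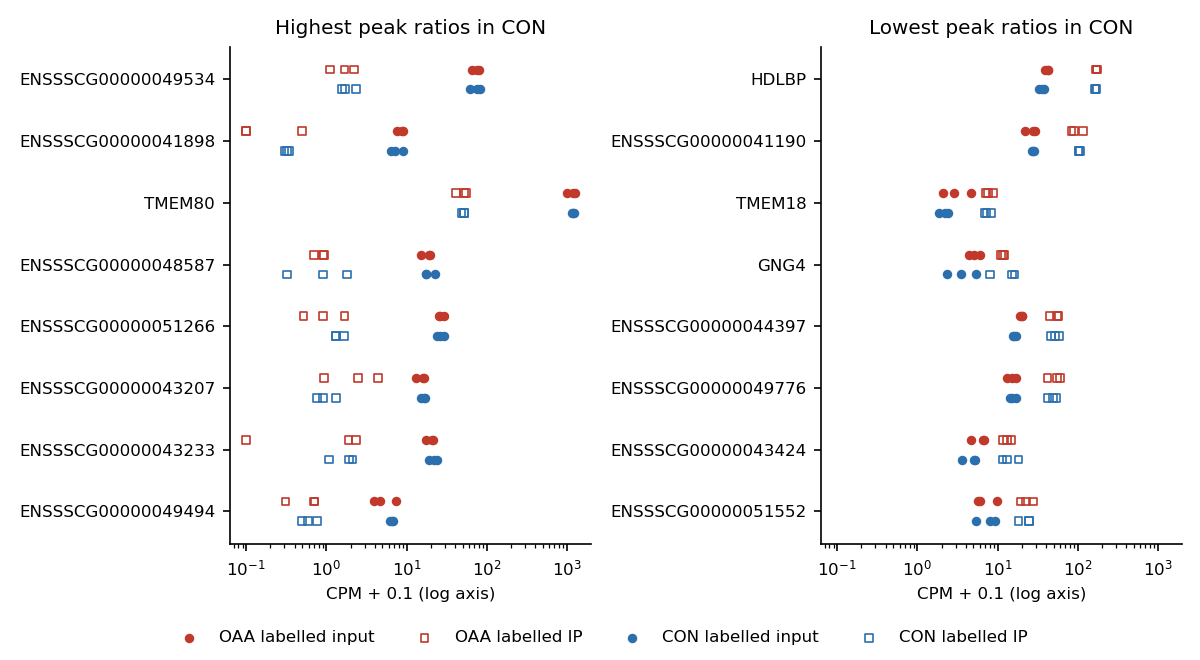
CPM + 0.1 on a log axis for the 8 lncRNA peaks with the highest (left) and the 8 with the lowest (right) ratio in CON cells among those that pass the naming rule; each point is 1 library, OAA red and CON blue, labelled input as filled circles and labelled IP as open squares. In CON cells the filled and open points of each peak do not overlap, as the rule requires, and the OAA points lie near the CON points.

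At the other end, the lowest ratio under the same rule belonged to HDLBP, the RNA-binding protein vigilin. Its 125 bp peak at chr15:139962562-139962686 had 42.8, 38.8 and 41.9 CPM in OAA labelled input, against 171, 175 and 169 CPM in OAA labelled IP. In CON cells it had 35.9, 32.4 and 37.4 CPM in labelled input, against 167, 172 and 165 CPM in labelled IP. Every labelled-IP library stood above every labelled-input library, and the labelled-input libraries of OAA lay above those of CON, a difference that edgeR did not call. The log2 ratio was -2.06 ± 0.09 in OAA and -2.25 ± 0.09 in CON cells (edgeR adjusted p in CON = 3.96e-20). Another peak of HDLBP, at chr15:140022251-140023041, had ratios of 1.10 in OAA and 0.77 in CON cells, both called higher.

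The remaining 7 low peaks were narrow and of moderate level. ENSSSCG00000041190, a gene without a symbol on chromosome 6, had a ratio of -1.89 ± 0.12 in OAA and -1.91 ± 0.12 in CON cells. GNG4, a G protein gamma subunit, had -1.19 in OAA and -1.82 in CON cells, and TMEM18, a nuclear membrane protein, had -1.31 in OAA and -1.84 in CON cells at the peak that was lowest of its 4 in CON. ENSSSCG00000044397, ENSSSCG00000049776, ENSSSCG00000043424 and ENSSSCG00000051552 had ratios of -1.43, -1.81, -1.16 and -1.70 in OAA and -1.70, -1.65, -1.64 and -1.59 in CON cells. All were called lower in both treatments.

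Peaks under several lncRNA genes fell outside that rule, and some of them had lower ratios still. The 3 described here were chosen after their values were seen and are not the only tested peaks below HDLBP. The lowest peaks of ENSSSCG00000048494, ENSSSCG00000041050 and ENSSSCG00000044029 had ratios of -3.60, -3.10 and -2.95 in CON cells. The peak at chr10:24956960-24957159, first listed under ENSSSCG00000032301, had 19.4, 18.9 and 26.9 CPM in OAA labelled input, against 402, 402 and 464 CPM in OAA labelled IP. It had 29.0, 20.1 and 21.2 CPM in CON labelled input, against 402, 434 and 398 CPM in CON labelled IP, with ratios of -4.28 ± 0.12 in OAA and -4.13 ± 0.12 in CON cells, the lowest of all tested lncRNA peaks in each treatment. Peaks under genes of both strands included it and the peak at chr6:4145162-4145261 of the identifier named COTL1, an actin-binding protein, with -2.91 in OAA and -2.92 in CON cells. The peak at chr7:23935469-23935643, first listed under ENSSSCG00000044205, had -3.39 in OAA and -3.48 in CON cells.

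A small part of the genes held peaks of both kinds. Of the 352 lncRNA genes with a tested peak, 199 had peaks called higher in CON cells and none lower, 33 had lower and none higher, 27 had both and 93 had none called. These counts were not computed for mRNA genes. They also depend on the filter: all 90 peaks called lower had passed it in labelled IP, but only 226 of the 319 called higher had. Among the 173 genes with several tested peaks the ratio spanned a median of 1.53 within the gene. The 27 genes with both are 15.6% of these 173, against 36.6% of the 6164 such mRNA genes, which have more and better-covered peaks.

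ENSSSCG00000044397, which has no symbol and lies between LAD1 and CSRP1 on chromosome 10, held the strongest lncRNA peak and 3 weaker ones. The strong peak, at chr10:23824834-23825508, had 1473, 1610 and 1525 CPM in OAA labelled input, against 468, 507 and 439 CPM in OAA labelled IP. In CON cells it had 1575, 1439 and 1416 CPM in labelled input, against 442, 444 and 470 CPM in labelled IP. The kinds of library did not overlap and the treatments did, with ratios of 1.70 ± 0.06 in OAA and 1.71 ± 0.06 in CON cells. The 200 bp peak just beside it, at chr10:23824609-23824808, ran the other way, with -1.04 in OAA and -1.26 in CON cells. The peak at chr10:23826854-23826953 had -1.43 in OAA and -1.70 in CON cells, and the one at the start of the gene had 0.31 in OAA and 0.01 in CON cells.

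The gene with the most peaks, ENSSSCG00000040413 between MORC2 and SELENOM on chromosome 14, showed the same alternation over 12 peaks, 11 of them tested. Its strongest peak, at chr14:47801802-47804024, had 138, 142 and 138 CPM in OAA labelled input, against 43.2, 45.3 and 51.3 CPM in OAA labelled IP, and a ratio of 1.58 ± 0.10. In CON cells that peak had 125, 154 and 144 CPM in labelled input, against 43.7, 45.0 and 43.5 CPM in labelled IP, and a ratio of 1.68 ± 0.10. The 5 narrower peaks called lower lay downstream, of 50 to 225 bp each, and their ratios in both treatments were between -0.77 and -1.23 in OAA and between -0.72 and -1.36 in CON cells. A peak farther on, at chr14:47808950-47809299, was high again, with 1.81 in OAA and 1.49 in CON cells.

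**Figure D3:**
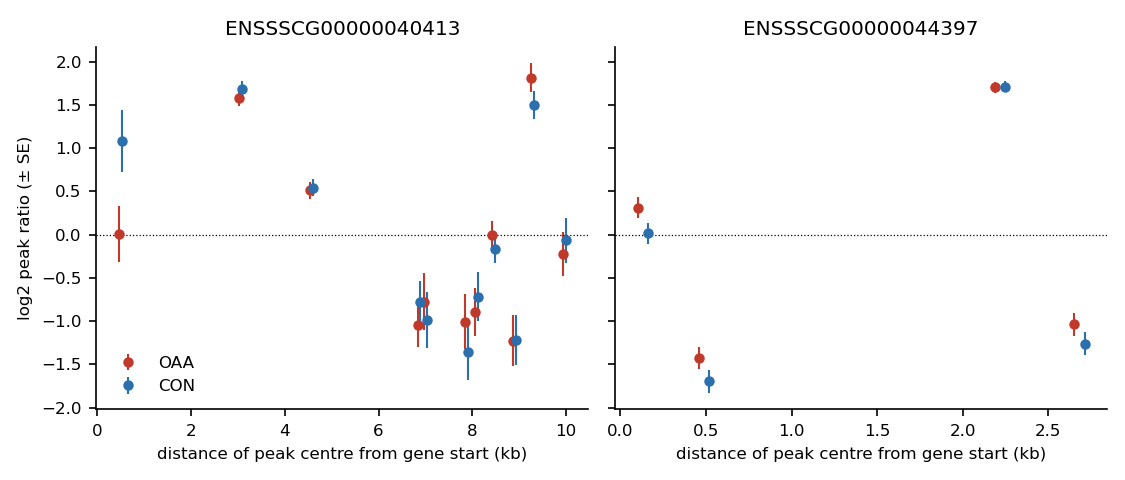
Log2 peak ratio (y axis, ± SE) of each tested peak against the distance of its centre from the start of the gene in kb (x axis) for ENSSSCG00000040413 (left) and ENSSSCG00000044397 (right), OAA red and CON blue, set slightly apart. Peaks of 1 gene lie on both sides of 0, from -1.36 to 1.68 in CON cells on the left, and the treatments lie close together.

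Of the other genes with many peaks, ENSSSCG00000041176 on chromosome 9 had 9 peaks, all tested ones with ratios above 0, from 0.42 to 2.89 in OAA and from 0.42 to 3.55 in CON cells. ENSSSCG00000050672 on chromosome 3 had 10, from -0.42 to 2.00 in OAA and from -0.39 to 2.24 in CON cells, all listed under a further lncRNA gene. ENSSSCG00000044029 had 8, all under several genes, from -2.01 to 3.79 in OAA and from -2.95 to 3.39 in CON cells. The identifier named GPRIN3, a G protein-linked inducer of neurite outgrowth, had 7 peaks from -0.18 to 2.43 in OAA and from -0.73 to 2.49 in CON cells. ENSSSCG00000041715 and ENSSSCG00000045283, also with 7 peaks each, ran from -0.11 to 1.71 and from -1.06 to 2.64 in OAA, and from -0.16 to 2.69 and from -0.74 to 2.81 in CON cells.

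Of 15 identifiers with a coding symbol and several tested peaks, 7 had peaks called both higher and lower in CON cells, and 8, among them GPRIN3, TMEM18, COTL1 and TMEM80, did not. The examples that follow were chosen after their values were seen. IER2, an immediate-early gene, had ratios of 0.95 in OAA and 0.88 in CON cells at chr2:65909721-65910869, and of -1.25 in OAA and -1.16 in CON cells at chr2:65910895-65911169. TIMM13, a chaperone of mitochondrial protein import, had 0.66 in OAA and 0.68 in CON cells at one peak and -1.02 in OAA and -0.98 in CON cells at the other. NDUFA7, a subunit of respiratory complex I, had 1.48 in OAA and 1.95 in CON cells at one peak and -1.31 in OAA and -1.59 in CON cells at the next. All of these were called in both treatments. PHF20, a reader in a histone acetyltransferase complex, had its strongest peak at 2.62 in OAA and 2.58 in CON cells. TINCR, whose only peak spans 5154 bp under 2 genes, had 22.8, 19.04 and 20.9 CPM in OAA labelled input, against 6.33, 3.86 and 7.29 CPM in OAA labelled IP, and a ratio of 1.84 ± 0.23. In CON cells it had 16.5, 13.7 and 19.5 CPM in labelled input, against 6.27, 6.20 and 3.87 CPM in labelled IP, and a ratio of 1.60 ± 0.23. Both were called.

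The authors' deposited table gives its own log2 ratios, on a scale without the typical peak at 0. Its median for lncRNA peaks was 4.99 in OAA and 4.87 in CON, against 4.01 in OAA and 3.93 in CON for mRNA peaks, and 1 of 766 lncRNA values was below 0 in each treatment. The gap between the gene types thus ran the same way in the authors' deposited table, which was made from the same libraries.

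The second question was whether 24 h with 25 µM OAA changed lncRNA peaks. The correlation r between the peak ratios of the 2 treatments was 0.784 over the 683 lncRNA peaks and 0.896 over the mRNA peaks. It is given as a description across peaks that share the libraries and their depth. Of the lncRNA peaks, 347 were called in both treatments, each with the same sign. The matching count over all peaks was not computed, so the 347 show nothing particular to lncRNA peaks. For the change of the ratio, OAA minus CON, edgeR called 0 of 683 lncRNA peaks (0.0% of all 24145 peaks tested), and DESeq2 also called 0 (0.00414% of all peaks, a single one). At an unadjusted p under 0.05 there were 36, or 5.27%, beside 4.46% of all peaks. The median change was 0.00 over lncRNA peaks and -0.01 over all peaks. The median 95% interval reached 1.10 to either side for a lncRNA peak and 0.61 for an mRNA peak, so that changes of less than about 2.14-fold were within the interval of a typical lncRNA peak. The authors' deposited table has 33 lncRNA peaks with a p-value under 0.05, 4.31% of them beside 2.69% of all peaks, and its lowest adjusted p for a lncRNA peak is 0.9998.

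The peaks with the smallest p for the change of the ratio rested on few reads. ENSSSCG00000041589 had 0 reads in all 3 OAA labelled-IP libraries and 4 in each CON labelled-IP library, and ENSSSCG00000042741 had 11, 4 and 3 reads in OAA labelled IP and 1, 0 and 0 reads in CON labelled IP. Their fitted changes depend on the prior count and are not given as sizes. Among the 8 peaks with the smallest p, the best covered was ENSSSCG00000051612, between ABCD3 and ARHGAP29. Its labelled-IP level was 4.55, 5.49 and 7.29 CPM in OAA cells and 8.29, 10.4 and 10.2 CPM in CON cells, and its labelled-input level was 50.6, 48.7 and 48.3 CPM in OAA cells and 47.5, 52.5 and 56.0 CPM in CON cells. The labelled-IP values did not overlap and the labelled-input values did. The change was 0.66 ± 0.24 (edgeR adjusted p = 0.999) and did not pass.

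In the labelled-input libraries edgeR called 0 of 760 lncRNA peaks for OAA against CON (0.0% of all 24835 tested), with 40 at an unadjusted p under 0.05, or 5.26%, beside 5.2% of all peaks. In the labelled-IP libraries it called 0 of 400 (0.00498% of all 20098 tested, a single peak), with 21 at an unadjusted p under 0.05, or 5.25%, beside 3.88%. DESeq2 called 1 lncRNA peak in labelled input (0.00805% of all peaks) and 0 in labelled IP (0.00498%). The median log2 difference over lncRNA peaks was -0.02 in labelled input and 0.01 in labelled IP, beside 0.00 and -0.00 over all peaks. Median 95% intervals reached 0.68 to either side in labelled input and 0.56 in labelled IP for lncRNA peaks.

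The same peak had the smallest p in both kinds of library. It lies at chr15:66866625-66867074, is 450 bp wide and belongs to ENSSSCG00000042862, a gene without a symbol between LY75 and RBMS1. In labelled input it had 256, 349 and 357 CPM in OAA cells and 214, 216 and 234 CPM in CON cells. In labelled IP it had 356, 372 and 213 CPM in OAA cells and 176, 229 and 175 CPM in CON cells. The OAA labelled-input libraries all lay above the CON ones, while in labelled IP OAA replicate 3 lay below the highest CON library. The log2 difference was 0.54 ± 0.09 in labelled input (edgeR adjusted p = 0.0811) and 0.68 ± 0.13 in labelled IP (edgeR adjusted p = 0.0841), and neither passed. The peak ratio was 0.03 in OAA and 0.19 in CON cells, and its change of -0.16 ± 0.19 did not pass either.

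**Figure D4:**
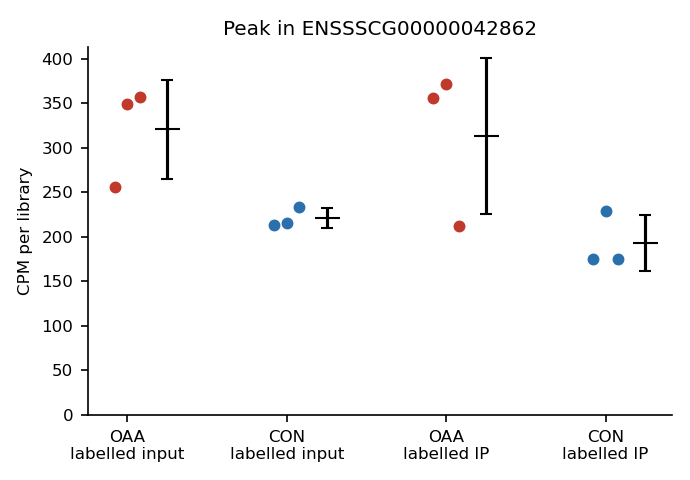
CPM per library (y axis) of the peak at chr15:66866625-66867074 in ENSSSCG00000042862 by treatment and kind of library (x axis); coloured points are the 3 libraries of a group, and the black bar and whisker are their mean ± SD. In labelled input the OAA libraries lie at 256 to 357 CPM above the CON libraries at 214 to 234 CPM, and in labelled IP 1 OAA library, at 213 CPM, lies among the CON libraries.

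Whether this peak passes depends on the libraries and the tool. It was called under 3 of 12 alternatives in each kind of library. In labelled input these included DESeq2 (adjusted p = 0.00239) and edgeR without OAA labelled input replicate 1 (adjusted p = 0.000136). In labelled IP they included edgeR with no filter on low counts (adjusted p = 0.000199) and edgeR without OAA labelled IP replicate 3 (adjusted p = 4.88e-30). The last value comes from a fit in which edgeR drew the variance of every peak almost wholly to the common trend (358 prior degrees of freedom, against 19.3 to 54.1 in the other labelled-IP fits) and called 50 of all peaks, so its size is not a measure of strength. Over 12 alternatives the adjusted p ran from 0.000136 to 0.886 in labelled input and from 4.88e-30 to 1.00 in labelled IP, and the log2 difference from 0.45 to 0.68 and from 0.55 to 0.90. The 3 other peaks of the gene had labelled-input differences of 0.11, 0.32 and -0.31, none of which passed.

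The read share was also computed without this peak. Without it, lncRNA peaks took 1.57%, 1.59% and 1.55% of reads in the OAA labelled-input libraries and 1.56% in each CON labelled-input library, and the treatments overlapped.

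Other peaks near the top of the labelled-input comparison did not pass. ENSSSCG00000044029 had, at chr8:73990691-73991015, 36.8, 32.6 and 29.3 CPM in OAA cells and 26.6, 18.9 and 17.5 CPM in CON cells, a log2 difference of 0.65 ± 0.15 (edgeR adjusted p = 0.872). ENSSSCG00000045751 had 4.09, 3.88 and 4.29 CPM in OAA cells and 7.60, 6.94 and 7.10 CPM in CON cells, a difference of -0.82 ± 0.23 (edgeR adjusted p = 0.940). The treatments did not overlap in either, and both peaks were chosen from 760 for their small p.

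The m6A machinery gave a set of mRNA peaks for comparison. Of 16 writers, erasers and readers, 15 had a tested peak, 52 peaks in all. In CON cells 24 of the 52 were higher and 17 lower, beside 33.9% and 34.2% of all peaks tested. Their median ratio in CON cells was 0.10. None of these peaks was called for OAA against CON in either kind of library or for the change of the ratio by edgeR.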

How the data were processed

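MeRIP-seq libraries of 12 samples were compared. Reads were counted per merged peak by the authors, and the deposited counts were used as given. Bowtie2 and HISAT2 are named in the submitters' processing notes. Neither their versions nor the peak caller or the genome build could be taken from these sources (not given in the sources used here), and coordinates are those of the deposited table, with starts turned to 1-based positions. Per the file headers, the peak table also holds the authors' log2 ratios and, for their difference, raw and adjusted p-values, and the authors' −log10 of both, which was not used. FPKM of 6 libraries, deposited in a gene table, served for markers only. Columns of single libraries with no sample numbered 0.

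The 29011 entries were reduced to 25055 peaks, each kept with its first row. Where entries gave 1 gene several extents (28 of 479 lncRNA identifiers), their union was used for spans, neighbours and positions. Counts were tested with edgeR 4.0.16 in R 4.3.3 (TMM scaling, filterByExpr with a minimum count of 10, quasi-likelihood F test, Benjamini-Hochberg adjustment over all peaks, threshold 0.05), the ratios and their change in 1 fit of all 12 libraries and OAA against CON within each kind of library. CPM are scaled by TMM. Tables were handled with pandas 2.3.3. The fits for the change of the ratio and for OAA against CON were run on simulated counts. Changes were placed only in peaks above a minimum mean count, with the same spread for every peak. The peak ratios within a treatment were not simulated. Alternatives were DESeq2 1.42.0, library-size scaling, no filter, wide peaks or peaks under several genes left out, each library left out, a replicate block, the member rule over all rows and, added after seeing the data, peaks with protein-coding symbols left out.

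Both libraries of a number come from 1 divided RNA per the labels' protocols, which pairs them for the ratio. Their deviations from the group means correlated at only -0.01 to 0.06. A planned comparison of FPKM was not run, since no lncRNA identifier is in that table.

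Peaks were named by rule: of called peaks under 1 gene with a mean of 5 CPM or more in the higher group and no overlap between the kinds of library in CON cells, the 8 highest and 8 lowest, 1 per gene; the 8 with the smallest p where fewer than 5 were called; the 5 genes with most peaks (3 tied for the last place); and the named lists. Members and lists were chosen with earlier results of these data known, and the ENSSSCG00000042862 peak was already known from them, so it is not independent evidence.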

Additional observations from a re-analysis of the deposited data

How the results depend on the processing

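The counts of lncRNA peaks called for the ratio stayed within 1.5 times of the main count under every alternative run, from 333 to 456 in OAA and from 336 to 462 in CON cells, and the median ratio stayed above 0 (0.58 to 1.03 in OAA, 0.50 to 1.01 in CON cells). With the replicate block, which the protocol supports for the ratio, 404 were called in OAA and 396 in CON cells, beside 68.2% and 67.6% of all peaks. With protein-coding symbols left out, chosen after seeing the data, 374 were called in each treatment. Shares over all peaks are not given for most other alternatives, so these ranges show nothing particular to lncRNA peaks. The change of the ratio called 0 lncRNA peaks throughout. OAA against CON called 1 lncRNA peak in labelled input under DESeq2 and with the replicate block, and 0 to 1 with each library left out in turn. In labelled IP it called 1 without the filter and with the replicate block, and 0 to 1 with each library left out. In each case this was the ENSSSCG00000042862 peak, with an adjusted p of 0.0255 in labelled input and 0.0209 in labelled IP under the block. Deviations from the group means correlated at -0.06 to -0.00 between OAA and CON libraries of the same number. The 2 libraries of a number, which share 1 RNA, correlated at only -0.01 to 0.06. The check therefore cannot decide whether the numbers pair OAA with CON libraries. The cause of the changes in calls between alternatives was not tested. Of 894 values of named peaks under alternatives, 888 kept their direction and side of the threshold, 6 passed it newly and 0 reversed. Depth limits the labelled-IP libraries most, where the median lncRNA peak has 8 to 11 reads.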
